A study of Mus musculus with 8 samples.

Results

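The Sox transcription factors examined here are 9 genes, Sox4, Sox5, Sox6, Sox8, Sox9, Sox10, Sox11, Sox17 and Sox18. They were taken from 1-colour expression arrays by matching the gene name that the scanner files give each probe, with control spots left out. All 9 were on the array, of 21254 genes named in all, through 15 probes of 60 bases that take up 24 spots per array. Of the 9, 6 were tested, among 13433 genes tested in all, because their signal exceeded background clearly in 3 or 4 arrays of either group. The samples were satellite cells, the stem cells of skeletal muscle, sorted from male C57BL/6 mice aged 3 months per the labels. The sort kept cells that carry integrin alpha 7 and removed those that carry CD31, CD45, CD11b or Sca1. One group came from basal, undamaged muscle (n = 4) and the other from muscle 3 days after cardiotoxin, a venom toxin that destroys muscle fibres (n = 4), and the labels name no other allele or agent. The labels call the samples biological replicates and do not say how many mice went into each.

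Sox proteins bind DNA through an HMG box, a domain that bends the double helix, and fall into subgroups whose members are alike and often act together. SoxC proteins (Sox4, Sox11, Sox12) are found in immature and dividing progenitors. SoxD proteins (Sox5, Sox6) lack an activation domain, help SoxE proteins in cartilage and, in the case of Sox6, repress slow fibre genes in muscle. SoxE proteins (Sox8, Sox9, Sox10) set up cartilage, neural crest and Schwann cells, and Sox8 and Sox9 have been described in satellite cells. SoxF proteins (Sox7, Sox17, Sox18) act in endothelial cells, and Sox17 has also been described in satellite cells.

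Of the 59305 non-control spots on each array, 50.15% to 56.74% were well above background, and no spot was saturated. Values are log2 processed signal minus the 75th percentile of the array, so 0 is the level of that percentile, and the level of one probe cannot be set against that of another. All basal arrays were on 1 slide with 1 scan and all injured arrays on another, and the effects of slide and scan cannot be told apart from that of injury. Injured 2, 3 and 4 had Xist at 6.37, 6.55 and 6.57 and no signal well above background for the Y-linked Ddx3y, although all samples are labelled male, while Xist on the basal arrays lay at 3.85, 2.15, -1.12 and -4.97. Injured 1 read 1.72 for Xist and held Ddx3y at -2.19. The part of this difference between arrays in the results was not tested, and values are also given without injured 2, 3 and 4. Basal 1 and basal 2 stood apart from the other basal arrays through endothelial transcripts, which are described with the SoxF genes. Of 12 markers of satellite cells, 10 were well above background on all 8 arrays, Pax7, Itga7 and Myod1 among them. Calcr was so on the basal arrays alone, and Myf5 on no array. In bulk RNA, fewer cells of a type and less RNA per cell cannot be told apart. Between the groups, 60.1% of all genes tested were called at an adjusted p under 0.05, 35.5% higher and 24.7% lower after injury, and the median log2 difference over all genes was 0.17. A call is therefore the rule on these arrays, and sizes and individual arrays say more about a Sox gene than the call does.

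Of the 6 Sox genes tested, Sox9 and Sox11 rose after injury, Sox8 and Sox10 fell, and Sox5 was not called. Sox4 was called lower by its brightest probe and higher by another, so its sign as a gene is not settled. The 5 called genes stand beside a background of 60.1% called, and in each of them the injured and basal arrays did not overlap, as was so for 57.2% of all genes. Sox6, Sox17 and Sox18 had no probe that passed the filter. Among the 15 probes, 9 were tested, of which 4 were called higher and 3 lower, beside 56.9% of all probes called, 31.7% higher and 25.1% lower. Sox8 had a fitted difference of -3.26 on the log2 scale, against injured arrays that were at background, and Sox11 one of 2.60. Which of these is larger depends on the processing, since normexp, another background correction, gave -1.23 and 1.99. Errors given with a log2 difference are moderated standard errors of limma with 4 arrays per group, and adjusted p values are those of limma with Benjamini-Hochberg adjustment over all genes or, where said, over all probes.

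**Figure D1:**
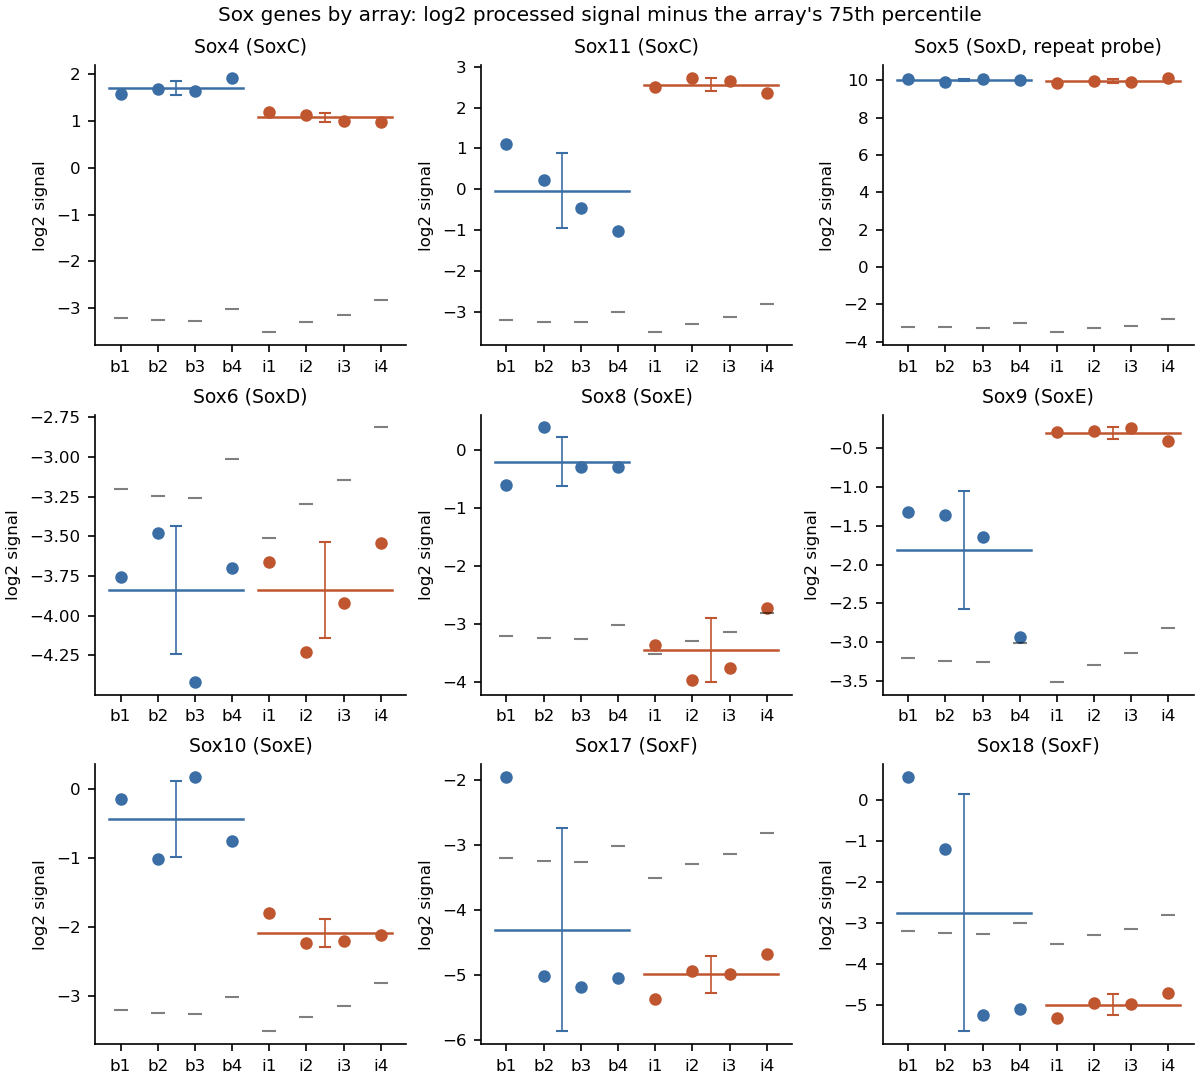
Each panel plots 1 Sox gene by its brightest probe, with basal arrays (b1 to b4, blue) and injured arrays (i1 to i4, orange) on the x axis and log2 signal minus the array's 75th percentile on the y axis, whose range differs between panels. Lines are group means with SD bars, and short grey dashes mark the dimmest probe well above background on each array; Sox11 and Sox9 lie higher and Sox8, Sox10 and Sox4 lower on all 4 injured arrays, while Sox17 and Sox18 exceed the dashes on basal 1, or basal 1 and 2, alone.

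Sox11, a SoxC factor of progenitors, rose. Its probe A_55_P2094721 (chr12:28020087-28020146, minus strand, mm9) had log2 signals of 1.12, 0.24, -0.46 and -1.03 on basal 1 to 4 and of 2.51, 2.73, 2.65 and 2.36 on injured 1 to 4. Every injured array was above every basal array, and the basal arrays were spread far wider (SD 0.93) than the injured ones (SD 0.16). The difference was 2.60 ± 0.41 (adjusted p = 7.67e-04). The other probe, A_52_P160955 (chr12:28019541-28019600), 546 bases further along the transcript, gave 2.28 ± 0.32 (adjusted p over probes = 4.62e-04). Its signals lay from -2.60 to -0.91 on basal and from 0.29 to 0.70 on injured arrays, again without overlap. The within-array difference between both probes did not separate the groups (0.32, exact permutation test, two-sided, p = 0.6). The last 30 bases of each probe are shown because the first holds AATAAA, the usual signal for poly(A) addition, here in capitals, which 10.1% of all 55681 probes on the array hold in this orientation.
Sox11 A_55_P2094721: ttcaaaagaccAATAAAaatcgtgtgatca
Sox11 A_52_P160955: gatgtttttatgaaagcctgtaagtggtcc
Sox11 was 3.31 higher without basal 1 and basal 2, and 2.54 higher but not called with injured 1 as the lone injured array (adjusted p = 0.0914). In the authors' deposited table the difference, tested with limma, was 1.73 (adjusted p = 0.0508).

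Sox4, the other SoxC member, gave opposite results on different parts of its transcript. The gene was represented by its brightest probe, A_55_P2121608 (chr13:29040826-29040885, minus strand), which read 1.58, 1.67, 1.62 and 1.91 on basal and 1.19, 1.12, 0.99 and 0.97 on injured arrays. All injured arrays were lower, and the gene fell by 0.63 ± 0.13 (adjusted p = 0.00266). The probe before it, A_55_P2121613 (chr13:29042856-29042915), lies 1626 bases downstream of the first Sox4 probe, where the last one lies 3656 bases downstream. It read 0.76, 1.44, 1.75 and 1.77 against 1.07, 0.61, 0.88 and 0.67. Here basal 1 lay below 2 injured arrays, and the difference of -0.62 ± 0.24 missed the threshold (adjusted p over probes = 0.0525), although it was called in 9 of 19 alternatives. The probe nearest the start of the transcript, A_55_P2131899 (chr13:29044482-29044541), went the other way. It read -0.14, -1.18, -0.71 and -0.78 on basal and 0.23, 0.09, 0.12 and 0.21 on injured arrays, without overlap, and rose by 0.87 ± 0.21 (adjusted p over probes = 0.00745), a call lost with injured 1 as the lone injured array (0.93, adjusted p = 0.204).

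Within each array, the signal of the upstream Sox4 probe less that of the last one was -1.71, -2.85, -2.33 and -2.69 on basal and -0.96, -1.03, -0.87 and -0.76 on injured arrays. This within-array ratio moved by 1.49. Each probe alone separated the groups, in opposite directions, so their ratio had to separate them as well. Its p by exact permutation test (two-sided) was thus fixed at 0.0286, the smallest that 4 against 4 can give, and adds no support. Adjusted over the 4 probe pairs compared, that p was 0.0571. The ratio of the other Sox4 probes to each other differed by 0.01 (exact permutation test, p = 0.971). The change in the ratio was 1.05 to 1.72 over 19 alternatives. As background, the upstream probe lies in the stretch that encodes the HMG box, which is the part of the transcript most alike between Sox genes. Its full sequence is shown beside that of the Sox15 probe A_55_P2094691 (chr11:69469212-69469271, plus strand), the Sox probe with which it shares the longest run, 13 bases, in capitals.
Sox4 A_55_P2131899: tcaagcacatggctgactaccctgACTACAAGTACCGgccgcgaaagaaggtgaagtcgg
Sox15 A_55_P2094691: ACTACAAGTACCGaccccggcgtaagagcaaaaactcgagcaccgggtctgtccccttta
The last 30 bases of the downstream probes, shown for contrast, shared no run of this length with a probe of another Sox gene, and the longest run between any other pair of probes of different Sox genes was 9 bases.
Sox4 A_55_P2121613: tggggtgatgcgtttggcatttgtgttgag
Sox4 A_55_P2121608: tcctatataccttctgtaaataactttttt
Only probes were compared, so the HMG box stretches of the other Sox transcripts were not searched. Sox11 and Sox15 were higher on the same injured arrays as the upstream Sox4 probe, while Sox12, the third SoxC gene, was lower (-1.37 ± 0.30). A part of the RNA of other Sox genes in the signal of this Sox4 probe was not tested. The mean of the Sox4 probes gave -0.13 (adjusted p = 0.418), and the authors' deposited table gave 0.11 for the brightest Sox4 probe (adjusted p = 0.846).

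**Figure D2:**
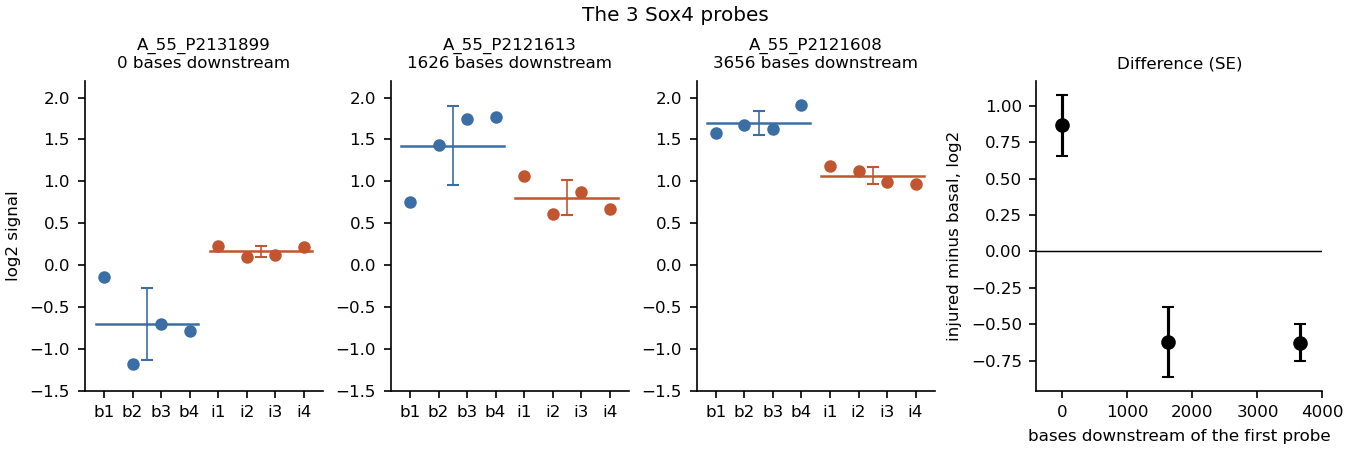
The first 3 panels plot each Sox4 probe by array (b basal, i injured) as log2 signal, ordered by their distance from the most upstream probe, with group means and SD bars. The last panel plots the log2 difference, injured minus basal, with its standard error against that distance in bases, and shows the most upstream probe at 0.87 and the others at -0.62 and -0.63.

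Genes that SoxC factors are known to activate were taken as a list of 6, of which 5 were tested. Of these, 4 rose and 0 fell, beside 35.5% and 24.7% of all genes (limma, and also 4 and 0 at an unadjusted p under 0.05). The median log2 difference was 2.09 beside 0.17 over all genes, and the list's median with normexp was 1.14. Of the 3 genes above background on all 8 arrays, 2 rose. Cdk6, a kinase that drives cells into S phase, was not above background on any basal array and was at least 5.69-fold higher (adjusted p = 9.62e-06). Ezh2, the methyltransferase of Polycomb complex 2, rose by 2.39 ± 0.42, Tubb3, a tubulin of neurons, by 2.09 ± 0.24 and Tead2, a partner of Yap, by 1.88 ± 0.26. Dcx, which binds microtubules in young neurons, differed by -0.03 ± 0.21, and Stmn2 was not above background on any array. Ezh2 was well above background on 1 basal array alone, with -1.56 on basal 1 and -3.73 on basal 3. Its fitted rise is therefore in part signal against background, and with normexp it was 0.91.

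Of the SoxD genes, Sox5 was not called and Sox6 was not tested. Sox5 was tested through its brightest probe, A_55_P2156905, which the files place on chromosome 6 through 27 of its bases (143776945 to 143776971). Its first 30 bases are shown because the probe is a repeat made of A and G alone.
Sox5 A_55_P2156905: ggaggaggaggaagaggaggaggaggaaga
It read 10.06, 9.93, 10.07 and 10.02 on basal and 9.86, 9.96, 9.92 and 10.13 on injured arrays, a range of 0.27, and differed by -0.05 ± 0.11 (adjusted p = 0.718). The probe ranked 81 by brightness among 55681, and the 23 probes on the array that hold A and G alone had a median of 6.57 against -2.39 for all probes. Whether it measures Sox5 was not tested. The other Sox5 probes were dim. A_55_P2088765 (chr6:143787982-143788041) was well above background on 2 basal arrays, with -3.50, -2.63, -1.56 and -2.21 on basal and -3.05, -3.35, -4.25 and -2.92 on injured arrays, and without the filter it differed by -0.92 ± 0.44 (adjusted p over probes = 0.166). A_51_P500318 (chr6:143781520-143781579) was above background on no array. The mean of all 3 probes gave -0.80 (adjusted p = 0.00354), a call that rests on dim values.

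Sox6, which represses slow fibre genes in developing muscle, had 1 probe (A_52_P475356, chr7:122615418-122615477). It was well above background on no array and lay between -4.42 and -3.48 on basal and between -4.23 and -3.54 on injured arrays. Its targets were nonetheless measured. Of 10 slow fibre genes tested, 6 rose and 2 fell, with a median of 0.83. Over all genes tested, 35.5% were called higher and 24.7% lower, with a median of 0.17. The slow troponins Tnni1 and Tnnc1 rose by 2.74 ± 0.63 and 2.60 ± 0.19, the calcium pump Atp2a2 by 1.66 ± 0.13 and the tropomyosin Tpm3 by 1.40 ± 0.24. Tnni1 differed among the injured arrays, at 1.17 and 0.61 on injured 1 and 2 and at 3.02 and 2.78 on injured 3 and 4. The slow myosin light chain Myl3 was at least 1.99-fold lower, and Prox1, a homeobox factor of slow muscle and lymphatic vessels, fell by 1.97 ± 0.37. Myh7, the slow myosin heavy chain itself, differed by 0.40 ± 0.23 (adjusted p = 0.163). Without a Sox6 signal above background, these values cannot be set against its level.

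SoxE genes moved in different directions. Sox8, a SoxE factor described in satellite cells, fell. Its probe A_52_P269672 (chr17:25703094-25703153, minus strand) read -0.60, 0.39, -0.29 and -0.28 on basal and -3.35, -3.97, -3.75 and -2.72 on injured arrays. It was well above background on all 4 basal arrays and on no injured array, so it passed the filter through the basal group alone. The fitted difference was -3.26 ± 0.31 (adjusted p = 6.20e-05), and against the detection limit Sox8 was at least 7.65-fold lower. Sox10, the SoxE factor of Schwann cells and other neural crest cells, was measured with A_55_P2094729 (chr15:78985518-78985577, minus strand). It read -0.15, -1.02, 0.17 and -0.76 on basal and -1.80, -2.23, -2.20 and -2.11 on injured arrays, all well above background. The groups did not overlap, and Sox10 fell by 1.65 ± 0.26 (adjusted p = 8.48e-04).

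Sox9, the SoxE factor of cartilage and many progenitors, rose. Its probe A_52_P214630 (chr11:112648809-112648868, plus strand) is spotted 10 times per array, and the mean of these spots was -1.33, -1.36, -1.64 and -2.94 on basal and -0.30, -0.28, -0.24 and -0.41 on injured arrays. The injured arrays lay within an SD of 0.07, the basal ones within 0.76, with basal 4 lowest and not well above background. The difference was 1.51 ± 0.33 (adjusted p = 0.00443) and 1.14 without basal 4. The last 30 bases of the SoxE probes are shown for identity, with AATAAA in capitals in the case of Sox10.
Sox8 A_52_P269672: ctttttaatttttctacttttcctaccttt
Sox9 A_52_P214630: catctttcgatttctgtataaaaacagacc
Sox10 A_55_P2094729: tccagcgataccttAATAAAgtacgtagct
With normexp, the other background correction, the SoxE genes kept their directions and calls at smaller sizes, with -1.23 for Sox8, 0.71 for Sox9 and -0.72 for Sox10. In the authors' deposited table Sox8 (-0.18, adjusted p = 0.754) and Sox10 (-0.25, adjusted p = 0.695) were not called, while Sox9 was (1.81, adjusted p = 0.0181). With injured 1 as the lone injured array, Sox8 kept its call, and Sox9 (1.52, adjusted p = 0.172) and Sox10 (-1.36, adjusted p = 0.127) did not.

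**Figure D3:**
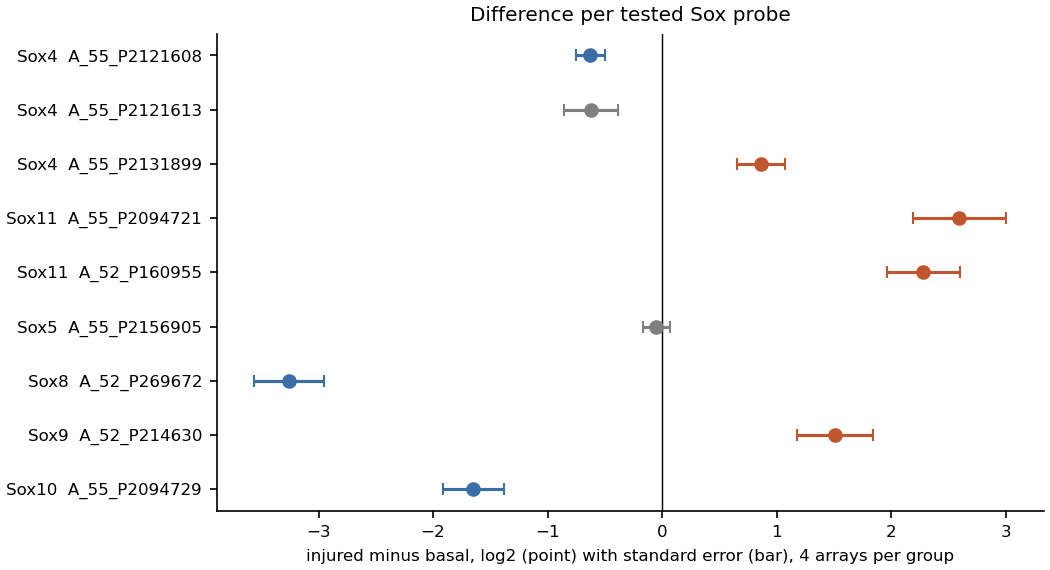
Points are log2 differences, injured minus basal, of the 9 tested probes of Sox genes, and bars are standard errors from 4 arrays per group. Orange probes were called higher, blue ones lower and grey ones not called; the 3 Sox4 probes lie on both sides of 0, and the SoxE genes Sox9 and Sox8 lie at 1.51 and -3.26.

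Of 9 Schwann cell genes that SoxE factors are known to activate, 5 fell and 0 rose, beside 24.7% and 35.5% of all genes. The median was -3.25 beside 0.17 over all genes (limma, with 5 lower and 1 higher at an unadjusted p under 0.05). Part of this size is signal against background: with the genes at background on all injured arrays set at their bound the median was -1.54, and of the 6 genes above background on all 8 arrays 2 were lower, with a median of -0.41. Egr2, a myelin activator that is also an immediate early gene, fell by 3.70 ± 0.32 and Pmp22, a myelin protein that other cells make too, by 3.27 ± 0.18. The receptor Ret was at least 3.13-fold lower. Mbp, a myelin gene with transcripts in other cells, differed by -0.56 ± 0.55 by the brightest of its 3 probes, and Erbb3, a neuregulin receptor, by 1.68 ± 0.71 (adjusted p = 0.0685). Averaging over probes called 6 genes of this list lower, Mbp among them, and 0 higher. With normexp the median of this list was -0.67.

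Some markers of Schwann and other glial cells were lower as well, and 6 of the 12 stand on the list of SoxE targets. Of 7 markers tested, 4 were lower, among them Egr2 and Mal, and 1 was higher, beside 24.7% and 35.5% of all genes. The higher one, the neurotrophin receptor Ngfr (0.83, limma adjusted p = 0.0333), lost its call in 11 of 22 alternatives, and its groups overlapped. Averaging over probes called 5 lower and 1 higher. The added gene was Mbp, since no other tested marker of this list had several probes. Of the 4 markers above background on all 8 arrays, 1 was higher and 1 lower, with a median of 0.13. The summed signal of the 12 markers was 13.6 to 44.0 times the 75th percentile on basal and 8.88 to 12.5 times on injured arrays, and 6 to 10 of them on basal and 4 or 5 on injured arrays were well above background. Of the defining markers, Cdh19 and Foxd3 were above background on no array, and S100b was so on 2 basal arrays. Egr2 and Sox10 were both highest on basal 3. The part of Schwann cell RNA in the values of Sox8 and Sox10 was not tested.

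The cartilage genes that Sox9 is known to activate with Sox5 and Sox6 gave no call, beside 60.1% of all genes called. Of 11 listed, 6 were tested and 0 were called in either direction (limma; 0 at an unadjusted p under 0.05), with a median of -0.08, although quantile normalization, both normexp settings and averaging over probes each called 1 lower. Acan, the aggrecan of cartilage, differed by -0.71 ± 0.43, Comp by -0.56 ± 0.38, and Col9a1, Col9a2 and Col11a2 by 0.04 to 0.12. Col2a1, the collagen that defines cartilage, was above background on no array, and neither were Col11a1, Matn1, Matn3 and Hapln1. Of 7 tendon and cartilage markers tested, Scx, the tendon factor, rose by 1.36 ± 0.18, Fmod fell by 1.28 ± 0.26 and Thbs4 was at least 8.89-fold lower. The summed signal of this list was 4.86 to 7.44 on basal and 8.27 to 10.9 on injured arrays. Scx, at log2 values of 1.27 to 1.97 on basal and 2.77 to 3.23 on injured arrays, made up most of the sum on the injured arrays. The higher sum there is therefore that of Scx and not of the list as a whole.

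SoxF genes were seen on basal arrays alone, and there on some. Sox18, an endothelial factor, had 1 probe (A_51_P472274, chr2:181404789-181404848, minus strand), which read 0.55 and -1.20 on basal 1 and 2, where it was well above background. It read -5.25 and -5.10 on basal 3 and 4 and -5.32 to -4.71 on injured arrays. Sox17, which acts in endothelium and endoderm, was above background on basal 1 alone. There its probe A_55_P2157023 (chr1:4481503-4481562, minus strand) read -1.96, against -5.18 to -5.01 on the other basal and -5.36 to -4.67 on the injured arrays. The second Sox17 probe, A_55_P2094706 (chr1:4481038-4481097), lay at -4.55 on basal 1 and at -5.34 to -4.79 elsewhere and was above background on no array. Neither gene passed the filter. Without the filter Sox18 differed by -2.24 ± 1.23 (adjusted p = 0.204) and Sox17 by -0.69 ± 0.68 (adjusted p = 0.510), and neither was called. The Sox17 value rests on basal 1 and that of Sox18 on basal 1 and 2. The other basal arrays were at background, as were the injured ones.

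The same arrays held endothelial transcripts, named here after their values were seen. Pecam1, which encodes CD31, against which the cells were sorted, read 3.20 and 2.87 on basal 1 and 2, -2.20 and -3.22 on basal 3 and 4 and -3.11 to -1.82 on injured arrays. The endothelial sialomucin Emcn read -0.24 and -0.53 on basal 1 and 2 and -5.34 to -4.69 on the other 6 arrays. The receptor Tie1 read 3.00 and 2.70, then -5.25 and -2.36, and at most -2.38 on injured arrays. The third SoxF gene, Sox7, followed with -2.78 and -2.54 on basal 1 and 2 and -4.39 or less on every other array. Of 14 endothelial markers, 13 were well above background on basal 1 and on basal 2, 8 on basal 3 and on basal 4, and 7 to 9 on injured arrays. Their summed signal was 50.7 and 41.0 on basal 1 and 2, 29.0 and 25.7 on basal 3 and 4 and 10.9 to 13.5 on injured arrays. Tek, which quiescent satellite cells also carry, made up most of the sum on basal 3 and 4 (20.2 and 15.7). Without Tek the sum was 39.4 and 32.2 on basal 1 and 2, 8.84 and 10 on basal 3 and 4 and 10.3 to 12.7 on injured arrays, so that basal 1 and 2 alone stood above the rest. On basal 2, where these markers were high, Sox17 was at background. The part of endothelial RNA in the signals of Sox17 and Sox18 was not tested.

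**Figure D4:**
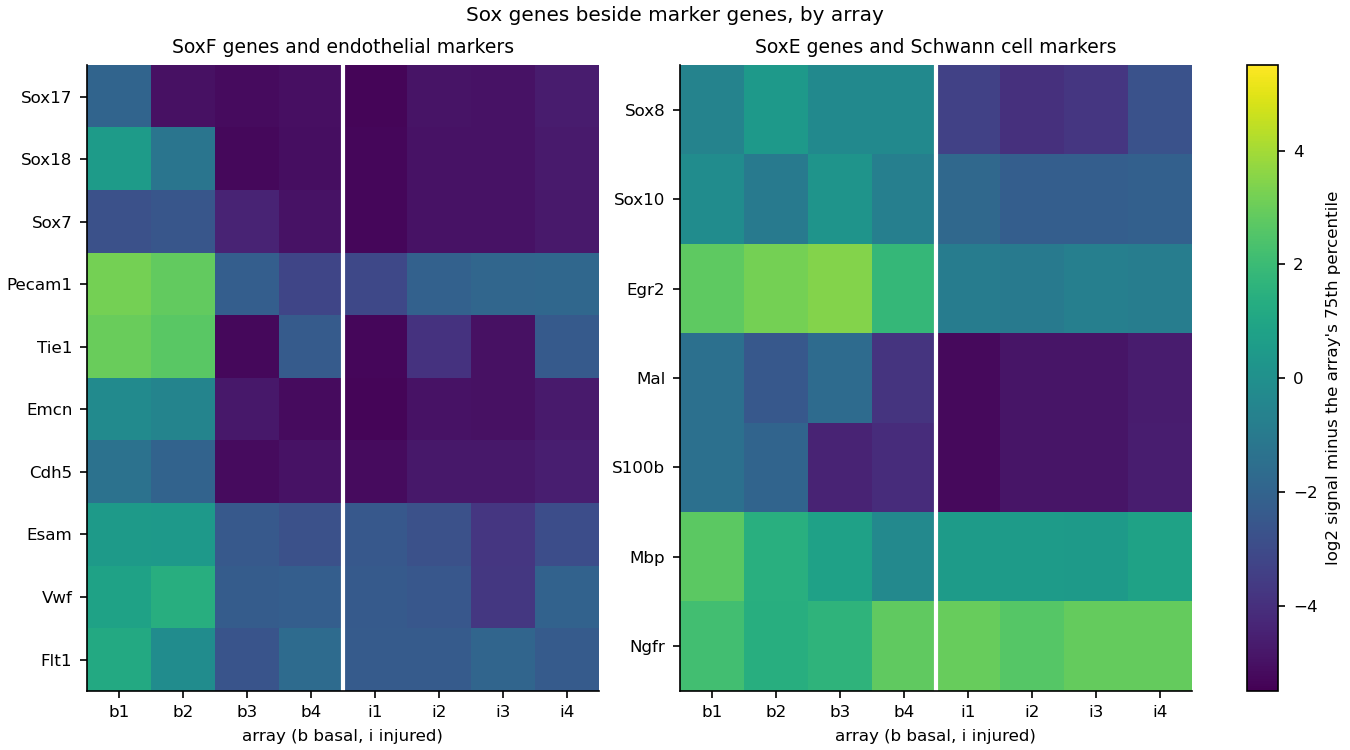
Colours give log2 signal minus the array's 75th percentile for Sox genes and marker genes (rows) on basal (b) and injured (i) arrays (columns), with SoxF genes beside endothelial markers on the left and SoxE genes beside Schwann cell markers on the right. Sox18 and Sox7 are brightest on b1 and b2, as are Pecam1, Tie1 and Emcn, and Sox8, Sox10 and Egr2 are brighter on all basal than on all injured arrays.

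Of 8 endothelial genes known as SoxF targets that were tested, 7 fell and 1 rose, beside 24.7% and 35.5% of all genes. The median of the 8 was -1.43, or -1.12 with 2 genes at their bound. Without basal 1 and basal 2 the counts were 5 and 1, so lower signal was not bound to those arrays for all of them. Tek, the angiopoietin receptor, read 3.50, 3.13, 4.33 and 3.97 on basal and -1.24 to -0.44 on injured arrays and fell by 4.69 ± 0.29. Prox1 fell by 1.97 ± 0.37 and Notch4 was at least 2.12-fold lower. Robo4, a guidance receptor of vessels, was at least 4.49-fold lower, but it was not above background on basal 3 and kept its call in 9 of 21 alternatives. Efnb2, a ligand of arteries and of myogenic cells, rose by 2.30 ± 0.41. Of the 11 genes of this list, 4 are endothelial markers, 1 is a satellite cell marker and 1 is on the list of slow fibre genes. By the authors' deposited table, 1 gene of this list was called lower and 1 higher. Of 11 endothelial markers tested, 3 fell, Tek, Robo4 and Cldn5, and 1, Kdr, rose by 0.39 ± 0.12, although the mean of the Kdr probes was -1.06 (adjusted p = 0.212).

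The other cell types that a sort of muscle can hold were covered by further marker lists. Their counts stand beside 24.7% of all genes called lower and 35.5% called higher. Of 11 satellite cell markers tested, 7 were lower, among them Calcr, Chodl, Pax7 (-2.95 ± 0.21) and Cd34 (-2.85 ± 0.33), and 3 were higher, among them Itga7 (1.13 ± 0.15) and Myod1 (0.77 ± 0.13). Of 6 fibro-adipogenic progenitor markers 5 were lower, among them Dcn, a proteoglycan well above background on 1 injured array (-7.79 ± 0.59, and -4.77 with normexp). Of 10 pericyte and smooth muscle markers 6 were lower, among them Rgs5, at least 18.2-fold. Neither list had a higher member (limma; 0 higher at an unadjusted p under 0.05). The summed signal of the progenitor list was 57.0 to 86.0 on basal and 7.11 to 9.85 on injured arrays, and Pdgfra, its defining receptor, was above background on no array. Of 8 immune cell markers tested, 1 was higher and 1 lower, and Ptprc differed by -0.18 ± 0.37. The part of any of these cells in the values of Sox8 and Sox10 was not tested.

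Of the other 10 Sox genes on the array, 5 were tested, of which 3 rose and 1 fell, beside 35.5% and 24.7% of all genes. Sox12, the third SoxC gene, read 0.40, -0.90, 0.21 and -0.62 on basal and -1.40, -1.50, -1.97 and -1.49 on injured arrays, and it fell by 1.37 ± 0.30 (adjusted p = 0.00437). Sox1, a SoxB factor of neural progenitors, rose by 0.73 ± 0.13 (adjusted p = 0.00176), from 0.47 to 0.83 on basal to 1.26 to 1.52 on injured arrays, while its other probe differed by 0.43 ± 0.22 (adjusted p over probes = 0.127). Sox15, which has been described in satellite cells, rose by 0.49 ± 0.16 (adjusted p = 0.0277). Its signals were -1.38 to -0.91 on basal and -0.86 to -0.32 on injured arrays, and the call was lost in 9 of 22 alternatives and the sign in the authors' deposited table (-0.67, adjusted p = 0.413). Sox21 rose by 0.45 ± 0.13 (adjusted p = 0.0181), a call lost in 5 of 22 alternatives, and its other probe was above background on no array. Sox14 differed by 0.43 ± 0.39 (adjusted p = 0.357). Sox2, Sox3 and Sox30 were above background on no array, and Sox7 and Sox13 were so on 1 basal array each.

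Genes whose profile over the 8 arrays was most like that of each tested Sox gene were found by the root mean square difference between values centred on each gene's mean. For Sox11 these were Cdt1, which licenses DNA replication, Nhp2, a part of box H/ACA particles, and Abracl, at 0.10, 0.12 and 0.15. Cdt1 shared the wide basal spread of Sox11, with 1.76, 0.84, 0.30 and -0.57 on basal and 3.09 to 3.32 on injured arrays. For Sox9 they were Syncrip, an RNA binding protein, Sod2, the mitochondrial superoxide dismutase, and Ccdc86, at 0.16, 0.16 and 0.17, each with its lowest value on basal 4. For Sox8 they were Rhoj, a small GTPase, the collagen Col5a3 and Zhx2, at 0.22, 0.23 and 0.30. Rhoj read 2.42 to 3.04 on basal and -0.93 to -0.16 on injured arrays. For Sox10 they were Prdm9, Fam168a and Gm4470, at 0.19, 0.23 and 0.23, and for the last Sox4 probe Adi1, Sgsm2 and Atg16l1, at 0.08 each. The Sox5 repeat probe was most like 2900040C04Rik, Npat and Oprm1, at 0.04 to 0.05, and none of the 3 was called. With 8 arrays in 2 groups, such likeness follows in part from the shared difference between the groups.

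Across the ways of processing, Sox8, Sox9, Sox10 and Sox11 kept their direction in all alternatives that gave a value, with ranges of -3.50 to -0.18, 0.71 to 1.98, -1.84 to -0.25 and 1.73 to 3.31. Sox4 ranged from -0.77 to 0.11 and Sox5 from -0.92 to 0.12.

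**Figure D5:**
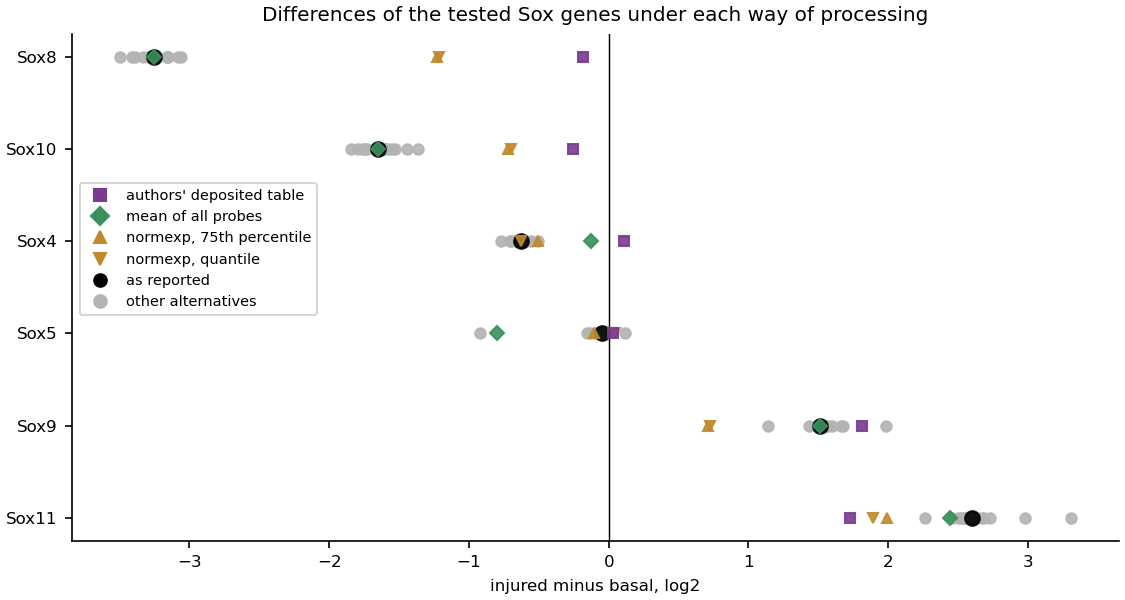
Each row is a tested Sox gene and each mark its log2 difference, injured minus basal, under 1 way of processing; black is the value reported and grey marks are alternatives without their own symbol, such as leaving out an array. The deposited table (squares) moves Sox8 from -3.26 to -0.18, normexp (triangles) moves it to -1.23 and -1.21, and Sox4 and Sox5 lie near or across 0.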

How the data were processed

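Total RNA of 8 sorted samples was labelled with Cy3 and put on 1 array each. Spot signals are in intensity units as deposited, and the file headers name Agilent Feature Extraction 10.7.3.1 as their source. They are not scaled between arrays. A deposited table by the authors holds log2 values, a scale read from the values; how it was made is not stated by the labels or headers, and its columns correlated with their own arrays' signals at 0.57 to 0.95. It served as an alternative.

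Processed signals were put on a log2 scale and the array's 75th percentile was subtracted. Spots with outlier flags (1119) were left out and spots of a probe averaged. For a gene with several probes the one of highest mean over the 8 arrays was taken, and genes with signal well above background in 3 or more arrays of either group were tested with limma 3.58.1 in R 4.3.3 (lmFit, eBayes, two-sided, Benjamini-Hochberg, threshold 0.05). Probe pairs were compared by exact permutation with SciPy 1.17.1. Where a gene was above background on no array of a group, the bound sets the other group's mean against each array's dimmest detected signal. The number of arrays limits the precision. The scripts' fit was tested on simulated data.

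The members and lists were chosen with earlier results of these data known. Named were all members and tested Sox genes, up to 4 called genes per list with the largest difference in the main direction and 2 in the other, the 3 genes nearest to each member, and Pax7, Myod1, Itga7 and Xist; genes not called were named after their values were seen. Alternatives were other scalings, normexp (offset 50), other filters, the mean of probes, limma options, the replicate block and left-out arrays; those without basal 1 and 2, without injured 2, 3 and 4 and with another Sox5 probe were added after seeing the data. Replicate numbers did not pair the samples. Positions are on mm9, as in the files; exon and UTR annotation of that build was not used here. Some genes of the lists are counted but not reported here by name.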

Additional observations from a re-analysis of the deposited data

Results flagged for a closer look

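The Sox17 probe A_55_P2157023 had 1 basal array far from the others. Basal 1 read -1.96 and the other basal arrays -5.18 to -5.01, so that the gap to the nearest took 0.947 of the group's range, above the 95% critical value of Dixon's test for 4 values; it was the 1 such case among 30 groups of Sox probe values examined, where chance gives about 1 in 20.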

How the results depend on the processing

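By the authors' deposited table, 1 Sox member was called higher and 0 lower, 0 of the other Sox genes either way, 754 genes lower, and 7 and 5 genes of the Sox-linked target lists higher and lower; Sox4 turned to 0.11 and Sox15 to -0.67, and the immune marker Csf1r to 0.51. With the mean of all probes Kdr turned to -1.06 and Csf1r to 0.14. Among genes above background on all arrays, 1 Sox member was higher and 7 target genes lower, since fewer genes were tested. Without injured 2, 3 and 4, which leaves 1 injured array assumed to vary like the others, 751 genes were higher and 980 lower, 0 and 1 Sox members, 0 and 1 Sox probes, 0 and 0 other Sox genes, and 3 and 7 target genes. For the deposited table the cause was not tested. Leaving out 1 array at a time gave 4146 to 4847 genes higher and 2933 to 3455 lower, 2 Sox members higher and 3 lower each time, 4 Sox probes higher and 3 to 4 lower, 11 to 12 and 11 to 13 target genes, and 1 to 3 other Sox genes higher, with 1 without injured 3. The share of calls that were higher was 58.94% as reported and 81.29% in the deposited table. The median of all genes was 0.17, 0.07 with normexp and quantile normalization and 0.48 in the deposited table, so differences relative to it shift by that much. The replicate numbers did not pair the samples (same-number correlations of deviations -0.003 to 0.093), and with the replicate block 4494 genes were higher and 3135 lower and 2 and 3 Sox members. The slide block was not run, since each slide holds 1 group. Signal near background limits Sox6, Sox17, Sox18 and 2 of the Sox5 probes.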

Other observations

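The probe of Sry, the gene after which the Sox family is named and which lies on the Y chromosome, was not among the members. It was chosen after its values were seen. It read 0.31, 0.82, 0.54 and 0.66 on basal and 0.77, 0.88, 0.99 and 0.96 on injured arrays, well above background on all 8. On injured 2, 3 and 4 the Y-linked Ddx3y lay at -4.97, -5.01 and -4.72 and Eif2s3y at -5.02, -5.06 and -4.78, where neither was well above background. On injured 1 these read -2.19 and -2.88.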
